A study of Mus musculus with 8 samples.

Results

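Cholesterol synthesis in primary mouse chondrocytes was described through 8 genes, found by symbol among the 24067 genes of the deposited expression table. They were Srebf2, which encodes the transcription factor SREBP-2, the enzyme genes Hmgcs1, Idi1, Fdps, Fdft1, Sqle and Cyp51, and Insig1, which encodes an inhibitor of SREBP activation. RNA was sequenced from chondrocytes, the resident cells of cartilage, after transfection of a small RNA. In the miR-204 group cells received 50 nM of miR-204, given as a mimic of that microRNA, and in the miR-Ctrl group 50 nM of a control mimic. Transfection lasted 24 h and the cells were harvested 24 h later. All cells came from knee cartilage of ICR mice aged 5 days and were cultured with 10% fetal bovine serum under 3% oxygen. Each group had 4 libraries, numbered 1 to 4. The labels name neither the number of animals behind a library nor whether libraries of a group are separate cultures, so the p-values speak only of the spread among these libraries, which could be technical.

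Cholesterol is built from acetyl-CoA through mevalonate and isoprenoid units to squalene, which is closed into lanosterol and then trimmed. When membranes of the endoplasmic reticulum hold little sterol, SREBP-2 is carried to the Golgi, cut there, and its freed part switches on nearly every gene of this route, Srebf2 itself included. INSIG proteins hold SREBP in the endoplasmic reticulum when sterol is plentiful. Since Insig1 is itself a target of SREBP, its transcript is a common readout of the pathway. In cartilage, cholesterol is needed by growing chondrocytes and also modifies Hedgehog ligands and the receptor component Smoothened.

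The sequences that bear on a direct effect of the mimic are the seed of the microRNA and its matches in the members' transcripts. The mature miR-204-5p of RefSeq (GRCm38.p6, the assembly also called mm10, chromosome 19, 22750610 to 22750631, plus strand) is given with its seed, bases 2 to 8, in capitals.
miR-204-5p: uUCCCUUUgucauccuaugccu
The longest annotated 3′ UTR of each of the 8 genes was searched for matches to this seed. None of the 8 had a 7mer or 8mer match, against 23.9% of 11061 tested genes with an annotated 3′ UTR. Srebf2 and Sqle had a 6mer each, AAGGGA, the shortest class of match, which 12.8% of those genes had as their best site. The 6mer of Srebf2 lay on chromosome 15 at 82204537 to 82204542 (plus strand), at base 620 of a 3′ UTR of 1462 bases. That of Sqle lay at 59330918 to 59330923 on chromosome 15 (plus strand), at the first base of a 3′ UTR of 275 bases. Both are shown with flanking bases, and the 6mer is in capitals.
Srebf2 6mer: catccttacAAGGGAcagccagcc
Sqle 6mer: AAGGGAgtccacgtg
The search covers only these annotated 3′ UTRs, and that of Fdps was 55 bases long.

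Promoters were available for 5 of the 8 genes (Srebf2, Hmgcs1, Idi1, Cyp51 and Insig1) in RefSeq, as 250 bases before and 50 bases after each start. They were searched on both strands for SRE-1 (the classical sterol regulatory element, ATCACCCCA followed by C), TCACNCCAC (a relaxed form that covers it), CCAAT (the box bound by NF-Y, a partner of SREBP) and GGGCGG (the GC box bound by Sp1). SRE-1 was in 0 of the 5 promoters, and in 0.0647% of 9272 tested genes with a promoter. TCACNCCAC was in 1 of the 5, that of Hmgcs1, and in 1.37% of those genes. A CCAAT box was in all 5 promoters and in 43.1% of those genes, and a GC box was in all 5 and in 71.1%. Neither was particular to the 8 genes. Of 14 other enzymes of the route with a promoter, 13 had a CCAAT box and 12 a GC box. The Srebf2 promoter held ATCACCCCA, SRE-1 without its last base, a motif that was added after that promoter had been seen and was in 0.205% of the tested genes. The 250 bases before the start are shown for Hmgcs1 and Srebf2, which held these matches, and for Insig1, the gene with the largest difference below. Capitals mark TCACNCCAC, ATCACCCCA and CCAAT in either direction (ATTGG on the opposite strand), build GRCm38.p6, plus strand.
Hmgcs1 chr13:119690101-119690350: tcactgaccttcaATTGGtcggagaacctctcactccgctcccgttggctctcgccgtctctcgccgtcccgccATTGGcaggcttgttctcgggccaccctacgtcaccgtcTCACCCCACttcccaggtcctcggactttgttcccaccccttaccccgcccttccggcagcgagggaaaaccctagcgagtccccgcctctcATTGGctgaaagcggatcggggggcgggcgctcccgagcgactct
Srebf2 chr15:82147019-82147268: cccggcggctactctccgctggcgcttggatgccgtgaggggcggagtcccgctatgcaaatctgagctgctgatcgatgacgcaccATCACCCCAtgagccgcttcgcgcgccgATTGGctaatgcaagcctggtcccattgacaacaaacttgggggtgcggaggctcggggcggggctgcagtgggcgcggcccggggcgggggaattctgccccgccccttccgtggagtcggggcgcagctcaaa
Insig1 chr5:28071162-28071411: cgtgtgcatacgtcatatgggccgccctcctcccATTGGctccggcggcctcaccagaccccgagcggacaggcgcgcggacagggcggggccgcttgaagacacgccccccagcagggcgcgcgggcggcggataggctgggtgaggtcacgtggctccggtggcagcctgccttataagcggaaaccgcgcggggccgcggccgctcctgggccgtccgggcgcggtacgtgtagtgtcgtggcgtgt
In Hmgcs1 the TCACCCCAC began 137 bases before the start. These matches are a description of the letters and not sites of binding.

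Expression is given in FPKM, fragments per length of transcript and per mapped fragments of the library, which summed to between 416560 and 490818 per library. Steps between low values gave depths relative to miR-Ctrl replicate 1 of 0.798 in miR-204 replicate 2, 0.772 in miR-Ctrl replicate 2 and 0.929 to 0.962 in the other 5 libraries. Both replicate 2 libraries stood apart on the first principal component, which held 58.4% of the variance of the tested genes. All 7 chondrocyte markers (Col2a1, Acan and Sox9 among them) were above 1 FPKM on average and summed to 10948 to 28907 FPKM in the miR-204 and to 10884 to 36761 FPKM in the miR-Ctrl libraries. Col2a1, Sox9 and Hapln1 were higher with miR-204 in 0 of 4 pairs, Acan, Col9a1 and Col11a1 in 1 and Matn1 in 2. Hapln1, singled out after its values were seen, averaged 143 ± 49.8 FPKM with miR-204 and 303 ± 121 FPKM with miR-Ctrl (SD, n = 4 each). Its groups overlapped. All 5 fibroblast markers were above 1 FPKM on average, with sums of 1502 to 3458 FPKM in the miR-204 and 1562 to 3310 FPKM in the miR-Ctrl libraries, lowest in replicate 3 of both groups. Of 5 macrophage markers 2 reached a mean of 1 FPKM, with sums of 8.54 to 16.04 FPKM in the miR-204 and 3.20 to 12.3 FPKM in the miR-Ctrl libraries, and the sum was higher with miR-204 in 4 of 4 pairs. Of these Cd68, singled out after its values were seen, averaged 3.93 ± 0.979 FPKM with miR-204 and 1.51 ± 0.759 FPKM with miR-Ctrl (SD, n = 4 each), without overlap. The macrophage markers did not move together. Lyz2 was higher with miR-204 in 4 of 4 pairs, Ptprc in 3, Csf1r in 2 and Adgre1 in 0. Ptprc, Csf1r and Adgre1 were low, reaching at most 0.0309, 0.193 and 0.188 FPKM in any library. Of 4 adipocyte markers only Fabp4 reached a mean of 1 FPKM. The adipocyte marker sums were 1.53 to 19.5 FPKM in the miR-204 and 0.395 to 31.8 FPKM in the miR-Ctrl libraries. Endothelial (3 markers) and erythroid (3) markers summed to no more than 0.169 and 0.345 FPKM in any library, and smooth muscle and pericyte markers (4) to 3.28.

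All 8 genes were detected in every library and passed the filter of a mean of 1 FPKM that 11612 genes passed. The genes are described in the order of their roles, the regulators first and then the enzymes along the route. In a culture of many cells, fewer cells of a type and less RNA per cell cannot be told apart.

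Srebf2 (gene ID 20788, chromosome 15, 82147269 to 82205379) encodes SREBP-2, the activator of the route. It was at 33.6, 31.9, 35.8 and 34.5 FPKM in miR-204 replicates 1 to 4, against 29.9, 35.5, 29.5 and 30.2 FPKM in miR-Ctrl replicates 1 to 4. The groups overlapped because miR-Ctrl replicate 2 was above the other miR-Ctrl libraries and above 3 of the 4 miR-204 libraries. Srebf2 varied least of the 8, and its highest library was 1.22 times its lowest.

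Insig1 (231070, chromosome 5, 28071412 to 28078662) encodes the membrane protein that retains SREBP when sterol is plentiful. It was at 47.4, 38.4, 53.2 and 50.5 FPKM in miR-204 replicates 1 to 4, against 36.6, 31.9, 24.0 and 34.9 FPKM in miR-Ctrl replicates 1 to 4. Every miR-204 library was above every miR-Ctrl library, and the lowest library was miR-Ctrl replicate 3. Insig1 lies wholly within the span of the noncoding gene Gm35223, for which the deposited expression table holds no values. Its part in the values of Insig1 was not tested.

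Hmgcs1 (208715, chromosome 13, 119690351 to 119708260) encodes the cytosolic synthase that makes HMG-CoA, the precursor of mevalonate. It was at 44.5, 54.2, 50.5 and 54.0 FPKM in miR-204 replicates 1 to 4, against 37.6, 50.8, 29.95 and 42.7 FPKM in miR-Ctrl replicates 1 to 4. The groups overlapped, since miR-Ctrl replicate 2 was above miR-204 replicates 1 and 3.

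Idi1 (319554, chromosome 13, 8885606 to 8892396) encodes the isomerase that interconverts the isoprenoid building blocks. It was at 21.8, 31.2, 24.6 and 26.3 FPKM in miR-204 replicates 1 to 4, against 18.5, 27.1, 12.9 and 21.7 FPKM in miR-Ctrl replicates 1 to 4. Both replicate 2 libraries were the highest of their group, the groups overlapped, and the lowest library was again miR-Ctrl replicate 3. Its paralog Idi2 peaked at 0.0150 FPKM across libraries.

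Fdps (110196, chromosome 3, 89093588 to 89101967) encodes the synthase of farnesyl diphosphate, from which sterols and prenyl groups branch. It was at 115, 95.03, 121 and 115 FPKM in miR-204 replicates 1 to 4, against 101.4, 96.3, 67.1 and 92.5 FPKM in miR-Ctrl replicates 1 to 4. miR-204 replicate 2 was lower than 2 miR-Ctrl libraries, so the groups overlapped.

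Fdft1 (14137, chromosome 14, 63145150 to 63181687) encodes squalene synthase, the entry into the sterol branch. It was at 26.7, 24.3, 30.5 and 25.4 FPKM in miR-204 replicates 1 to 4, against 20.7, 23.9, 16.6 and 19.6 FPKM in miR-Ctrl replicates 1 to 4. The groups did not overlap, but the lowest miR-204 and the highest miR-Ctrl library, both of replicate 2, were close. The gene shares 774 bases with Ctsb, which lies on the opposite strand and was at 137 ± 36.3 FPKM in miR-204 and 122 ± 53.9 FPKM in miR-Ctrl libraries (SD, n = 4 each). The libraries were stranded, but the sources used here do not say whether the authors' quantification used strand.

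Sqle (20775, chromosome 15, 59315092 to 59331193) encodes squalene epoxidase, which adds the oxygen needed to close the ring. It was at 38.5, 37.6, 41.8 and 40.7 FPKM in miR-204 replicates 1 to 4, against 33.1, 39.3, 24.5 and 33.7 FPKM in miR-Ctrl replicates 1 to 4. The groups overlapped through miR-Ctrl replicate 2, which was above 2 of the miR-204 libraries.

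Cyp51 (13121, chromosome 5, 4080674 to 4104697) encodes lanosterol demethylase, which acts after ring closure. It was at 29.6, 27.5, 33.2 and 31.7 FPKM in miR-204 replicates 1 to 4, against 25.9, 26.8, 20.4 and 25.8 FPKM in miR-Ctrl replicates 1 to 4. The groups did not overlap, with 27.5 FPKM in the lowest miR-204 and 26.8 FPKM in the highest miR-Ctrl library.

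**Figure D1:**
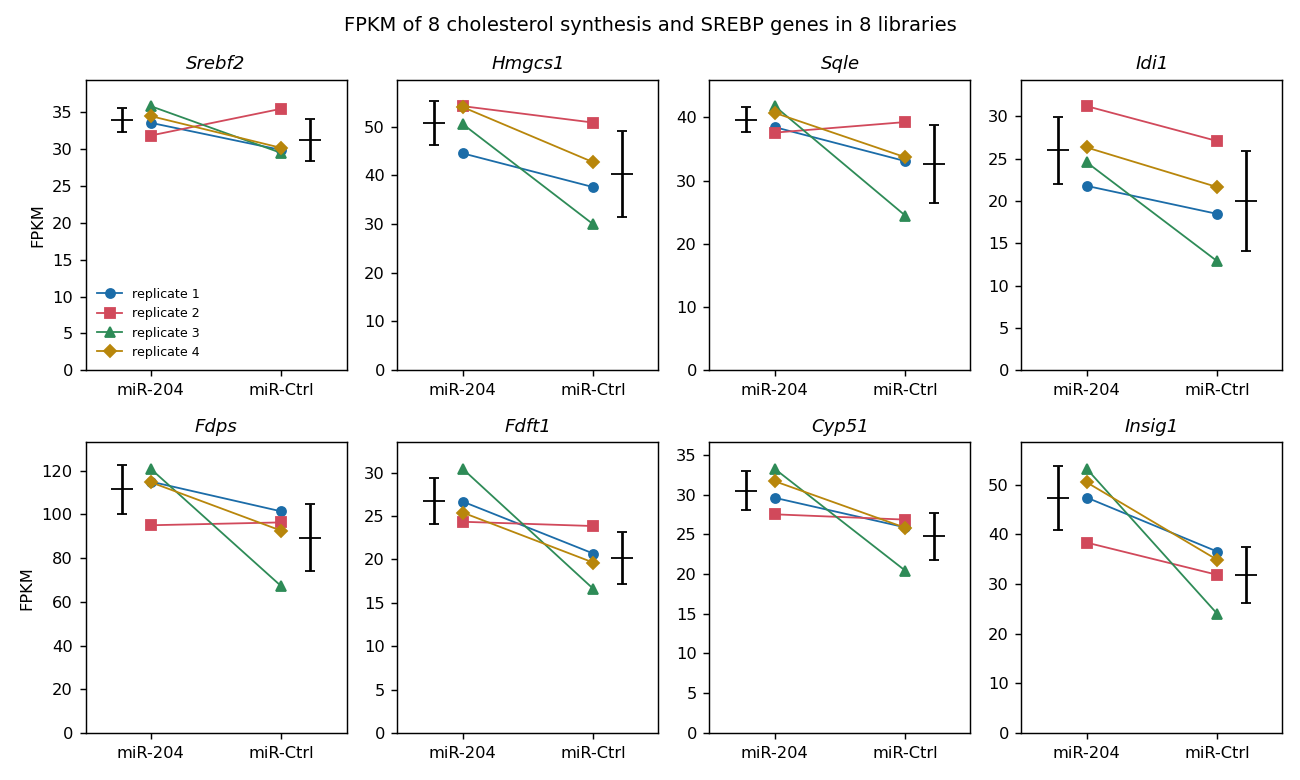
FPKM of each of the 8 genes (y axis, from 0) in miR-204 libraries at the left and miR-Ctrl libraries at the right of each panel; lines join libraries of equal replicate number and the black marks are the mean ± SD of each group (n = 4). The line of replicate 3 is the steepest in every panel, and miR-Ctrl replicate 3 is the lowest library of every gene.

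Since FPKM is scaled to transcript length, the levels of the genes can be set in order. Fdps was highest in both groups, at 111 ± 11.3 FPKM in miR-204 and 89.3 ± 15.2 FPKM in miR-Ctrl libraries (SD, n = 4 each), and its range did not meet that of the next gene, Hmgcs1, in either group. Hmgcs1 averaged 50.8 ± 4.53 FPKM in miR-204 and 40.3 ± 8.78 FPKM in miR-Ctrl libraries. Idi1 was last in both, at 26.0 ± 3.96 FPKM in miR-204 and 20.0 ± 5.94 FPKM in miR-Ctrl libraries, and its range overlapped that of Fdft1 in each. In miR-204 libraries Insig1 (47.4 ± 6.46 FPKM) stood above Sqle (39.6 ± 1.95 FPKM), and in miR-Ctrl libraries Sqle (32.6 ± 6.11 FPKM) stood above Insig1 (31.8 ± 5.56 FPKM), but in both groups the ranges of these neighbours overlapped. The order was otherwise the same in both groups, with Srebf2, Cyp51 and Fdft1 between them and Idi1. The only other gaps between ranges of neighbours were those between Sqle and Srebf2 with miR-204 and between Srebf2 and Cyp51 with miR-Ctrl.

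The comparison asks whether transcripts of sterol synthesis differed after the miR-204 mimic. All 8 genes averaged higher in miR-204 than in miR-Ctrl libraries, by 0.12 to 0.57 on the log2(FPKM + 1) scale. Their median was 0.34 and that of the 11612 tested genes was 0.064, and 74.1% of those genes lay above 0. The 8 genes were chosen with earlier results of these data known, so this contrast is a description and not a test. With libraries centred on their median, which shifts all differences by about 0.064, the 8 genes again all lay above 0, as did 50.1% of tested genes. In limma's unpaired test over all of them, 0 of the 8 passed an adjusted p of 0.05 in either direction, and 0.0258% of all tested genes were called higher and 0.181% lower. At an unadjusted p under 0.05 by limma, 4 of the 8 were higher (Insig1, Fdft1, Cyp51 and Fdps), as were 763 of all tested genes. The intervals below show which differences these libraries leave possible.

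Insig1 had the largest log2 difference, 0.57 (95% interval 0.22 to 0.91, limma adjusted p = 0.274), and 99.0% of tested genes had a lower one. Idi1 followed at 0.39 (−0.087 to 0.87) and Fdft1 at 0.39 (0.13 to 0.65, limma adjusted p = 0.355). Idi1 had the widest interval of the 8. Hmgcs1 was at 0.35 (−7.5e-05 to 0.70), Fdps at 0.33 (0.0081 to 0.65), Cyp51 at 0.30 (0.069 to 0.52) and Sqle at 0.29 (−0.0068 to 0.59). The interval of Hmgcs1 touched 0 and that of Sqle crossed it. Srebf2 had the smallest difference, 0.12 (−0.050 to 0.29, limma adjusted p = 0.704), which 68.7% of tested genes fell below. The intervals of Srebf2 and Insig1 overlap, and the difference between the genes was not tested.

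Libraries of equal number deviated together across genes, so the pairs were also compared with the replicate number as a block. In this paired limma fit 1 of the 8 genes rose, Insig1 (adjusted p = 0.0404, interval 0.24 to 0.89), and 0 fell, while 12.4% of all tested genes rose and 2.83% fell. A count of 1 in 8 is near that background. At an unadjusted p under 0.05 by the paired limma fit there were 7 of the 8, all but Srebf2, beside 3472 higher genes of all tested. The other paired adjusted p-values by limma were 0.0619 for Hmgcs1, 0.0664 for Idi1, 0.0700 for Fdft1, 0.0883 for Cyp51, 0.128 for Fdps, 0.138 for Sqle and 0.283 for Srebf2. The call of Insig1 was lost with libraries centred on their median, where its difference was 0.50 (paired limma adjusted p = 0.0582), and with quantile normalization (0.0544). There 0 of the 8 passed by limma in either direction, beside 4.99% higher and 4.32% lower of all tested genes with centring and 4.78% higher with quantile normalization, and 5 of the 8 had an unadjusted p under 0.05 in each, beside 1738 higher genes of all tested with centring and 1607 with quantile normalization.

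**Figure D2:**
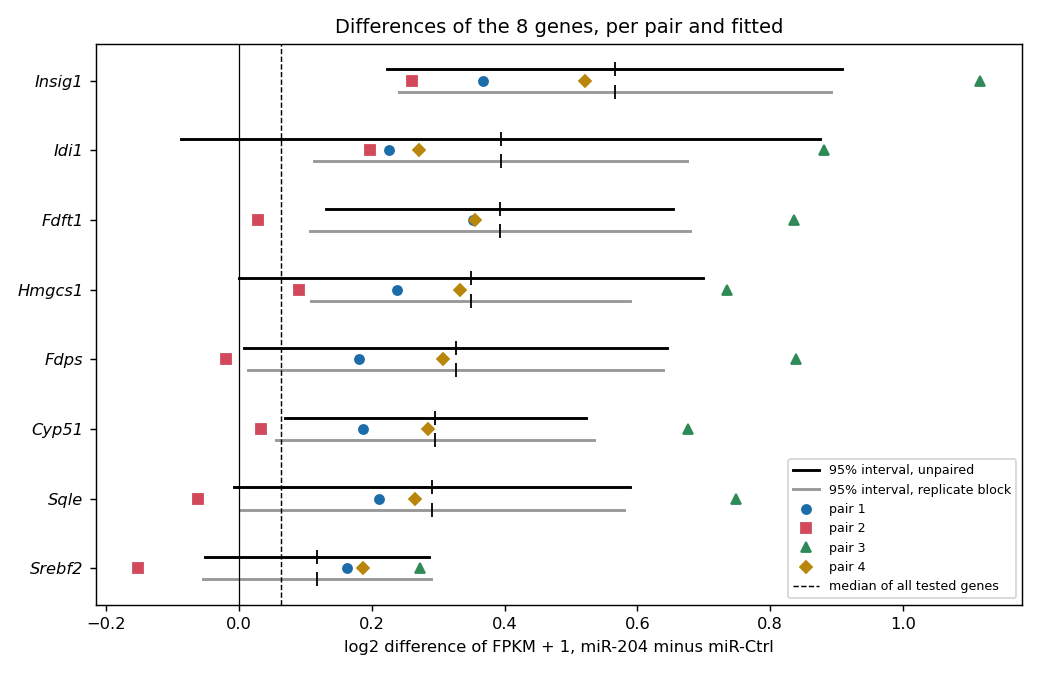
Log2 difference of FPKM + 1, miR-204 minus miR-Ctrl (x axis), for each of the 8 genes: coloured symbols are the 4 pairs of equal replicate number, and black and grey bars are the 95% intervals of the unpaired limma fit and of that with a replicate block. Pair 3 lies farthest to the right and pair 2 farthest to the left in every gene; the dashed line is the median of all tested genes, 0.064.

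The differences were unequal between pairs. Within pairs 1 to 4 the median of the 8 log2 differences was 0.22, 0.031, 0.79 and 0.30, against 0.052, 0.044, 0.097 and 0.069 over all tested genes. All 8 genes had their largest difference in pair 3, as had 37.6% of all tested genes, and all 8 had their smallest in pair 2, as had 40.2%. In pair 3 the ratio of miR-204 to miR-Ctrl FPKM lay between 1.22 for Srebf2 and 2.22 for Insig1. In pair 2 it lay between 0.898 for Srebf2 and 1.20 for Insig1, and Srebf2, Sqle and Fdps were below 1 there. The ratios of Insig1 were 1.30, 1.20, 2.22 and 1.45 in pairs 1 to 4. It was higher with miR-204 in 4 of 4 pairs, as were Hmgcs1, Idi1, Fdft1 and Cyp51, 5 of the 8 in all beside 33.9% of all tested genes. The groups did not overlap in 3 of the 8 (Insig1, Fdft1 and Cyp51), beside 4.32% of all tested genes that were higher without overlap.

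In pair 3 both libraries stood near the ends of the range. miR-204 replicate 3 was the highest of the 8 libraries for 6 of the 8 genes, and for 11.96% of all tested genes. miR-Ctrl replicate 3 was the lowest of the 8 for each of the 8 genes, and for 36.8% of all tested genes. The 8 genes together summed to 357, 340, 390.5 and 378 FPKM in miR-204 replicates 1 to 4, against 304, 332, 225 and 301 FPKM in miR-Ctrl replicates 1 to 4. Only the sum of miR-Ctrl replicate 3 was far below the others. The same library had the highest sum of chondrocyte markers (36761 FPKM), the lowest of macrophage markers (3.20 FPKM) and the lowest of adipocyte markers (0.395 FPKM, with Adipoq, Plin1 and Lep at 0). Cd68 was at 4.75, 4.74, 3.49 and 2.76 FPKM in miR-204 replicates 1 to 4, against 2.00, 2.22, 0.545 and 1.28 FPKM in miR-Ctrl replicates 1 to 4. Its ratio, like those of the 8 genes, was largest in pair 3 (6.40), and the part of these markers in the differences was not tested. Both replicate 2 libraries, where the differences were smallest, had the lowest chondrocyte marker sums (10948 FPKM with miR-204, 10884 FPKM with miR-Ctrl). They also had the highest adipocyte marker sums (19.5 FPKM with miR-204, 31.8 FPKM with miR-Ctrl), nearly all of it from Fabp4. Adipoq was lower there (0.0295 FPKM with miR-204, 0.152 FPKM with miR-Ctrl) than in replicates 1 and 4 of the same group. Plin1 was highest in replicate 4 of each group, and Lep reached at most 0.0101 FPKM in any library. The part of these markers was not tested either.

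Leaving out pairs changed the calls. Without both replicate 2 libraries the paired limma fit called all 8 genes higher, with adjusted p-values from 0.0145 (Srebf2) to 0.0482 (Idi1) and a median difference of 0.44, beside 23.9% of all tested genes. With centred libraries in addition, a fit added after the data had been seen, it called 4 of the 8 (Insig1, Fdft1, Hmgcs1 and Srebf2) beside 10.9%. Without both replicate 3 libraries the median difference was 0.19, and Insig1 alone passed (paired limma adjusted p = 0.0462), beside 2.03% of all tested genes; with centring as well, again added after the data had been seen, the median was 0.14 and Insig1 again passed alone (0.0488), beside 1.08%. Without replicate 1 or replicate 4, 0 of the 8 passed the paired limma fit, in which 0.766% and 0.362% of all genes were higher. At an unadjusted p under 0.05 those fits had 5 and 4 of the 8, beside 2454 and 2120 higher genes of all tested.

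Of the other 16 enzymes of the mevalonate and sterol route, 2 rose in the paired limma fit and 0 fell, beside 12.4% and 2.83% of all tested genes, and the list's median log2 difference was 0.11 against 0.064 for all. Tm7sf2, a sterol reductase, rose (8.21 ± 0.406 FPKM with miR-204, 6.26 ± 1.08 FPKM with miR-Ctrl, SD, n = 4 each; log2 difference 0.35, paired limma adjusted p = 0.0380). Nsdhl, a sterol dehydrogenase, rose in the same fit (20.1 ± 2.63 FPKM with miR-204, 15.5 ± 5.18 FPKM with miR-Ctrl; 0.40, adjusted p = 0.0479). Both calls were lost with centred libraries, and 0 of the 16 passed unpaired, where 3 had an unadjusted p under 0.05 by limma, as had 998 of all 11612 tested genes. Without replicate 2 the paired count was 7 rises and 0 falls, beside 23.9% higher of all tested genes, and without replicate 3 it was 0 and 0, beside 2.03% higher.

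Of the 16 enzymes 13 had a difference above 0, or 10 with centred libraries, beside 74.1% and 50.1% of all tested genes. For 13 the largest difference was in pair 3, as for 37.6% of all tested genes. miR-Ctrl replicate 3 was the lowest library for 11 of the 16, and for 36.8% of all tested genes.

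**Figure D3:**
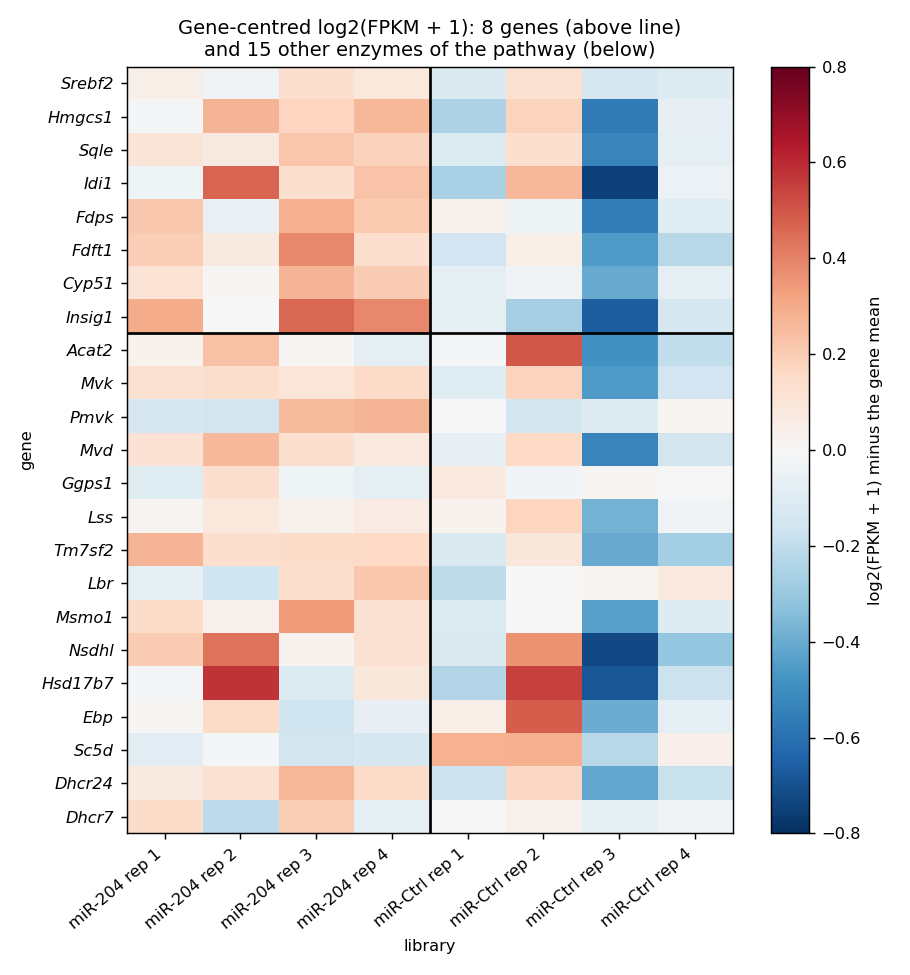
Gene-centred log2(FPKM + 1) of the 8 genes (above the line) and of 15 of the 16 other enzymes of the route (below), with miR-204 libraries left and miR-Ctrl libraries right; red is above and blue below the mean of the gene over the 8 libraries. The column of miR-Ctrl replicate 3 is blue for all 8 genes and for most of the other enzymes shown.

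Genes that control SREBP showed small differences, with a median of 0.044 over 10 genes. Insig2, the second INSIG gene, rose in the paired limma fit (15.95 ± 1.89 FPKM with miR-204, 14.0 ± 2.53 FPKM with miR-Ctrl, SD, n = 4 each; 0.18, adjusted p = 0.0481), but not with centred libraries. It was the only one of the 10 called in the paired fit, beside 12.4% higher and 2.83% lower of all tested genes. Unpaired, 0 of the 10 passed and 0 had an unadjusted p under 0.05 by limma (adjusted p = 0.740 for Insig2). With centred libraries the list's median was −0.020, so its direction depended on the scaling. Srebf1, which encodes SREBP-1, the factor better known for fatty acid genes, averaged 80.8 ± 21.1 FPKM in miR-204 and 73.7 ± 18.6 FPKM in miR-Ctrl libraries and passed neither fit.

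Of 10 genes of sterol uptake and transport 9 were tested, with a median log2 difference of 0.18. Unpaired, 0 of the 9 passed, and 2 had an unadjusted p under 0.05 by limma. In the paired limma fit 2 rose and 1 fell, beside 12.4% and 2.83% of all tested genes. Lipa, the lysosomal lipase that frees cholesterol from its esters, rose (14.4 ± 3.81 FPKM with miR-204, 11.0 ± 3.59 FPKM with miR-Ctrl, SD, n = 4 each; 0.38, adjusted p = 0.00816), also with centred libraries (adjusted p = 0.00979). Soat1, which re-esterifies cholesterol for storage, fell (24.8 ± 3.14 FPKM with miR-204, 29.7 ± 2.70 FPKM with miR-Ctrl; −0.26, paired limma adjusted p = 0.0175), also with centred libraries (adjusted p = 0.00956). Stard4, a sterol carrier, rose in the paired fit (0.18, adjusted p = 0.0440) but not with centred libraries. The unpaired limma adjusted p was 0.711 for Lipa, 0.531 for Soat1 and 0.797 for Stard4.

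Targets of SREBP-1 in fatty acid synthesis had a median of 0.14 over 10 genes, with 2 rises and 1 fall in the paired limma fit, beside 12.4% and 2.83% of all tested genes. Unpaired, 0 of the 10 passed and 1 had an unadjusted p under 0.05 by limma. Me1, the malic enzyme that supplies NADPH, rose (75.5 ± 2.50 FPKM with miR-204, 66.2 ± 2.46 FPKM with miR-Ctrl, SD, n = 4 each; 0.19, adjusted p = 0.0212) and so did the desaturase gene Scd1 (60.8 ± 12.4 FPKM with miR-204, 49.5 ± 10.0 FPKM with miR-Ctrl; 0.29, adjusted p = 0.0450). Neither passed with centred libraries. Elovl6, an elongase, fell (8.94 ± 1.40 FPKM with miR-204, 10.4 ± 1.124 FPKM with miR-Ctrl; −0.20, adjusted p = 0.0477; with centred libraries 0.0243). The unpaired limma adjusted p was 0.327 for Me1, 0.710 for Scd1 and 0.672 for Elovl6. The list of LXR targets, which respond to excess sterol, also held the genes of the LXR receptors themselves. Of its 6 tested genes 0 rose and 1 fell in the paired limma fit, beside 12.4% and 2.83% of all tested genes. Its median was 0.043, or −0.021 with centred libraries. That gene was Apoe, which encodes a lipid carrier (25.1 ± 15.4 FPKM with miR-204, 32.7 ± 22.7 FPKM with miR-Ctrl; −0.32, adjusted p = 0.0290). With centred libraries its paired limma adjusted p was 0.0181. Unpaired, 0 of the 6 passed and 0 had an unadjusted p under 0.05 by limma, and the interval of Apoe was −1.68 to 1.04 (adjusted p = 0.927).

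The list calls of the paired fit depended on the libraries kept. Without replicate 3 those of Tm7sf2, Nsdhl, Insig2, Stard4, Me1, Scd1, Elovl6 and Apoe were lost, and that of Elovl6 was also lost without replicate 2. Without replicate 1, and without replicate 4, 0 genes of any of these 5 lists passed the paired limma fit. Lipa and Soat1 kept their calls without replicate 2 and without replicate 3.

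Sites for the miR-204-5p seed in the longest 3′ UTR were counted over all 5 lists. Of 51 tested list genes with an annotated 3′ UTR 16 had a 7mer or 8mer, beside 23.9% of all tested genes with one. Of these 16, 10 had a log2 difference above 0, beside 74.1% of all tested genes. Among the 10 genes named as called in the paired fit, Soat1 and Elovl6, which fell, had an 8mer and a 7mer each, and Stard4, which rose, had a 7mer. The other 7 had neither, Apoe among them, which fell. Long 3′ UTRs give more room for a match. Those of Soat1, Elovl6 and Stard4 had 6534, 5005 and 4231 bases, against a median of 1188 over all tested genes with one. The part of length was not tested.

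**Figure D4:**
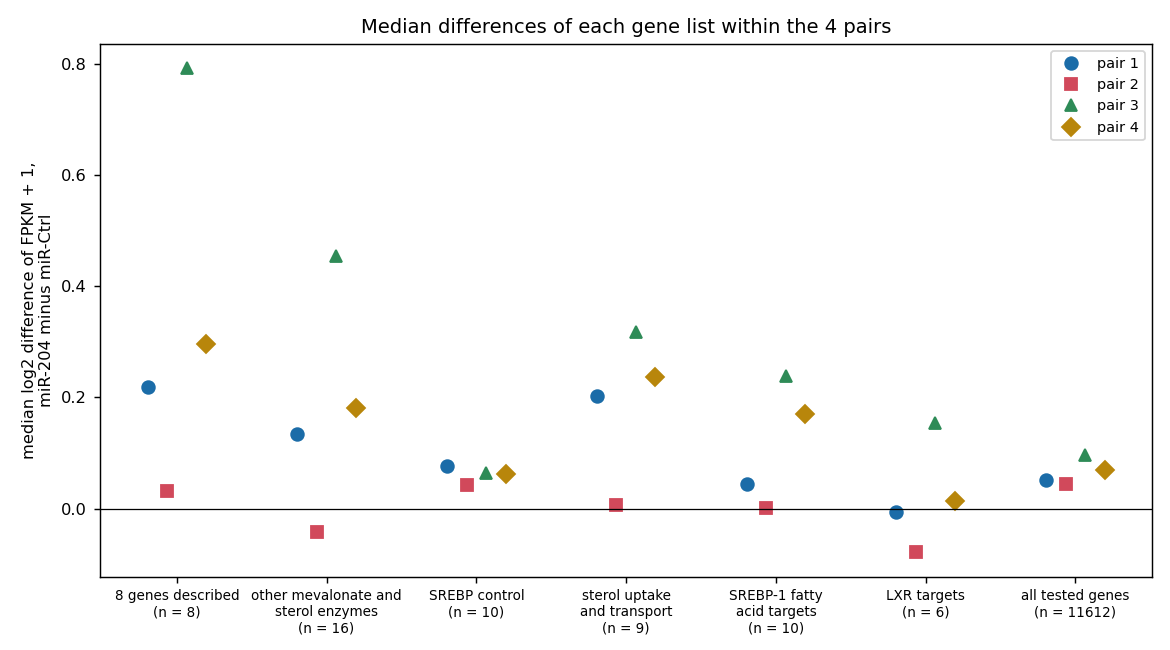
Median log2 difference of FPKM + 1, miR-204 minus miR-Ctrl (y axis), of each gene list (x axis, with its number of tested genes) within pairs 1 to 4 (symbols). The 8 genes have the widest spread of medians, 0.031 in pair 2 to 0.79 in pair 3, while the medians of all tested genes lie between 0.044 and 0.097.

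Among 2722 tested genes outside the members and lists that varied at least as much as the mean profile of the 8, those nearest to that profile by root mean square difference of centred log2 values over the 8 libraries were Slc35e4 (0.069), Lipg (0.081), Abhd14b (0.099), Pfkp (0.09998) and 2610203C20Rik (0.104). Of the 8 themselves Sqle was nearest to their mean (0.037) and Idi1 farthest (0.194). The 8 make up that mean and were not held to the filter on variation, so their distances do not compare with those of the other genes. In the mean profile the libraries stood at 0.12, 0.099, 0.26 and 0.21 for miR-204 replicates 1 to 4, and at −0.13, 0.052, −0.51 and −0.10 for miR-Ctrl replicates 1 to 4. The low value of miR-Ctrl replicate 3 is its main feature, which genes chosen for nearness to the profile share through that choice. Slc35e4 stood at −0.50 there, Lipg at −0.45, Abhd14b at −0.54, Pfkp at −0.55 and 2610203C20Rik at −0.59.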

How the data were processed

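RNA of 8 libraries, 4 with miR-204 and 4 with miR-Ctrl, was measured. The authors deposited 1 FPKM value per gene and library. The kit kept strand and selected mRNA, per the labels' protocols. Tools named, per the submitters' processing notes, are Cufflinks 2.2.1 and TopHat, whose version the sources used here leave out, with build mm10. Count models were not applied to FPKM, which shift when abundant genes take more fragments.

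Groups and numbers came from the labels. Symbols were updated through the gene ID in RefSeq's table (GRCm38.p6), where 23987 of 24067 IDs were found. The members and lists were chosen with earlier results of these data known. The test was limma 3.58.1 (R 4.3.3), run on log2(FPKM + 1) for the 11612 genes averaging 1 FPKM or more, with a trended prior, two-sided, with Benjamini-Hochberg adjustment over all of them at 0.05. Differences on this scale understate changes of low genes. The code was tested on simulated data. The alternative fit had the replicate number as a block. Across genes, deviations from group means correlated between equal numbers with r = 0.44, 0.82, 0.76 and 0.62 for replicates 1 to 4. The labels give only the number, so the pairing comes from the data. Other alternatives were centring and quantile scaling, a pseudocount of 0.1, other filters, an untrended prior and libraries left out. 3′ UTRs came from GENCODE M21. The named genes were all 8 members, up to 4 called genes of each list by smallest paired adjusted p, and the 5 nearest profiles. Srebf1 was named in addition, for its role and with its values known. Some genes of the lists are counted but not reported here by name.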

Additional observations from a re-analysis of the deposited data

Results flagged for a closer look

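Among 38 groups of 4 libraries, formed from the 8 genes and 11 named pathway genes in each group, 3 held a library whose gap to the nearest other exceeded Dixon's critical share of the range at the 95% level; chance flags about 1 in 20. Srebf2 was at 35.5 FPKM in miR-Ctrl replicate 2, above the other 3 miR-Ctrl libraries. Cyp51 was at 20.4 FPKM in miR-Ctrl replicate 3, below the other 3. Insig2 was at 17.8 FPKM in miR-Ctrl replicate 2, above the other 3.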

How the results depend on the processing

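Each of the 8 genes kept a log2 difference above 0 in all 27 alternatives, of which 2 were chosen after seeing the data (the replicate block with centred libraries, without replicate 2 and without replicate 3). Over all tested genes 3 were called higher and 21 lower unpaired. The replicate block gave 1436 higher and 329 lower, of which 1 was a member. The block with centred libraries gave 579 and 502, and with quantile normalization 555 and 536. Unpaired, centring gave 8 higher and 55 lower, quantile normalization 7 and 66, and no filter on low values 4 and 12. Leaving out both libraries of a replicate number gave 0 to 2 higher and 0 to 16 lower unpaired. With the replicate block it gave 42 to 2781 higher and 48 to 522 lower, lowest without replicate 4 and highest without replicate 2, and 0 to 8 members. By single fits with the block, these were 89 and 83 without replicate 1, 2781 and 522 (8 members) without replicate 2, 236 and 149 (1 member) without replicate 3 and 42 and 48 without replicate 4. The block with centred libraries gave 1271 and 1027 (4 members) without replicate 2, and 125 and 197 (1 member, median difference 0.14) without replicate 3. Leaving out 1 library gave 0 to 4 higher and 1 to 16 lower. The cause of these differences was not tested. Read totals are not known here, so no counting error can be given for an FPKM.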
